A study of Homo sapiens with 6 samples.

Results

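The EGFR family ligands and receptors described here are 8 genes chosen by name: the ligand genes EREG, AREG, HBEGF, TGFA and BTC (5 genes) and the receptor genes EGFR, ERBB2 and ERBB3 (3 genes). They are 8 of the 58735 genes in the deposited tables, and all 8 had enough counts to be among the 14458 genes tested. RNA was sequenced from cultured A549, a widely used cell line derived from a human adenocarcinoma of the lung, in 3 libraries titled OE_GPX3, whose genotype and treatment are given as OE, and 3 libraries titled Vector, whose genotype and treatment are given as WT. GPX3 encodes a secreted glutathione peroxidase. The labels name no other allele or agent in either group, and they do not say which promoter drove GPX3, whether the cells were a clone or a pool, or whether replicates were separate cultures, so an error or p-value below measures only the spread between these libraries, which may be technical. The 8 genes were chosen with the difference between OE_GPX3 and Vector already seen, so that difference is given for them as a description, with intervals and without a test.

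Receptors of this family are tyrosine kinases that sit in the plasma membrane of epithelial cells, pair with each other when a ligand binds, and pass the signal to the RAS-ERK and PI3K-AKT pathways. The ligands are made as membrane-anchored precursors and are released by metalloproteases such as ADAM17, after which they act on the same or a neighbouring cell. AREG and TGFA bind EGFR, EREG, HBEGF and BTC bind EGFR and ERBB4, ERBB2 binds no known ligand, and ERBB3, whose kinase is impaired, is a receptor for neuregulins. In lung adenocarcinoma EGFR is a well-known drug target, and several of the ligand genes are themselves switched on by ERK signalling.

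Total counts were 15831693 to 18751815 per library. GPX3 stood at 1311, 1031 and 1361 CPM in the OE_GPX3 libraries and 36.0, 33.8 and 39.6 CPM in the Vector libraries, where CPM is the count scaled to the size of the library with TMM factors. OE_GPX3 replicate 1 lay apart from the other 5 libraries on the second principal component, at 16.7 against -8.43 to 4.73, and pathway calls that turn on it are given with and without it. The first component held 42.6% of the variance and the second 24.9%. On the first, Vector replicate 3, at -0.67, lay nearer to OE_GPX3 replicate 1, at 1.91, than to Vector replicates 1 and 2, at -14.3 and -13.5. All 12 markers of epithelial and A549 identity were detected, with a summed level of 13303 to 15331 FPKM in OE_GPX3 and 12276 to 13113 FPKM in Vector, where FPKM is the authors' value per length of gene. Of 16 markers of blood, endothelial, stromal, secretory, ciliated, alveolar and neuroendocrine cells, 15 stayed below 1 FPKM in all 6 libraries, and SCGB1A1, a marker of airway secretory cells, was at 0 in all. The summed level of the 16 was 1.74 to 2.40 FPKM in OE_GPX3 and 1.23 to 1.64 FPKM in Vector, and CHGA reached 1.52 FPKM. The part of these in the results was not tested. As these are bulk samples, fewer cells of a type and less RNA per cell cannot be told apart.

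Among the ligands, amphiregulin (AREG) was the most abundant member per length in both groups. AREG averaged 35.9 ± 3.64 FPKM in OE_GPX3 and 48.1 ± 5.03 FPKM in Vector (SD, n = 3 each). ERBB2 came next at 18.8 ± 1.24 FPKM in OE_GPX3 and 16.4 ± 1.68 FPKM in Vector (SD, n = 3 each). In both groups the libraries of AREG and ERBB2 did not overlap, nor did those of ERBB2 and the member below it. ERBB3 was at 9.33 ± 1.81 FPKM in OE_GPX3 and 8.48 ± 0.232 FPKM in Vector (SD, n = 3 each). EGFR was at 8.27 ± 0.996 FPKM in OE_GPX3 and 9.18 ± 1.67 FPKM in Vector (SD, n = 3 each). These receptors overlapped within each group, so their order, ERBB3 above EGFR in OE_GPX3 and EGFR above ERBB3 in Vector, was not separated by the spread of the libraries.

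Epiregulin (EREG) held the fifth place with 4.39 ± 0.242 FPKM in OE_GPX3 and 7.06 ± 1.36 FPKM in Vector (SD, n = 3 each). TGFA followed at 3.76 ± 0.508 FPKM in OE_GPX3 and 3.76 ± 0.312 FPKM in Vector (SD, n = 3 each). EREG overlapped TGFA within OE_GPX3 but not within Vector, where it overlapped ERBB3 instead. HBEGF, which encodes heparin-binding EGF-like growth factor, was at 1.09 ± 0.0337 FPKM in OE_GPX3 and 1.73 ± 0.221 FPKM in Vector (SD, n = 3 each). BTC, which encodes betacellulin, was last at 1.07 ± 0.0591 FPKM in OE_GPX3 and 1.01 ± 0.0739 FPKM in Vector (SD, n = 3 each). HBEGF overlapped BTC within OE_GPX3 and stood above it in all Vector libraries. Levels per length depend on the length used: the deposited length of ERBB2 is 10321 bases, while its longest coding transcript in GENCODE release 29 has 4792 bases, and for EREG the lengths are 5717 and 4619 bases.

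**Figure D1:**
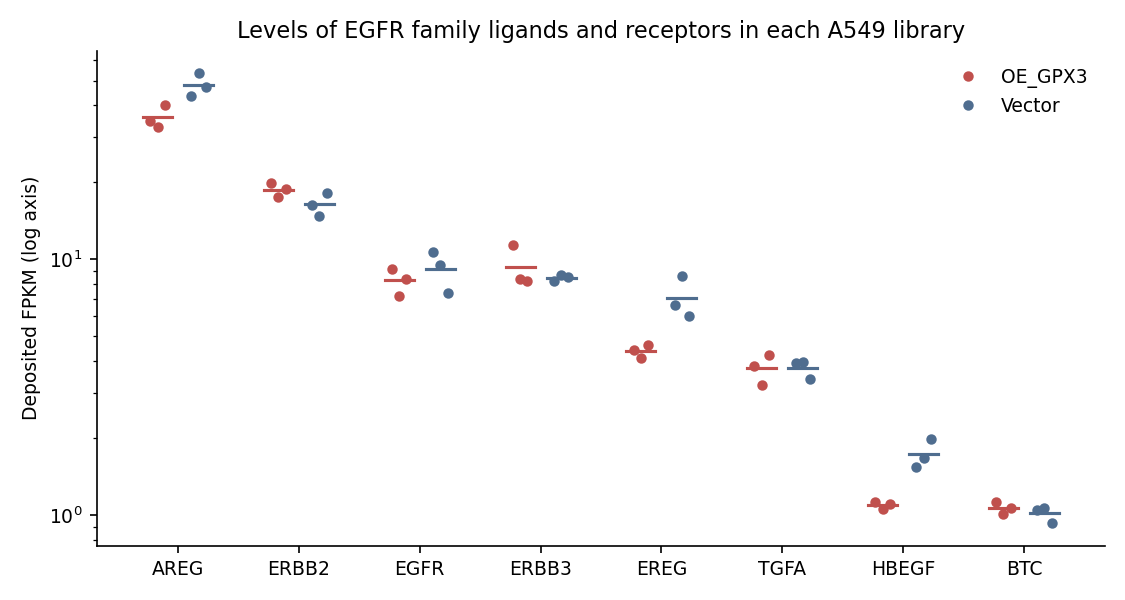
Deposited FPKM (log axis) of the 8 genes in each library, OE_GPX3 left of Vector for each gene, points for libraries and bars for group means, with genes ordered by their Vector mean. The points of AREG, EREG and HBEGF lie lower in OE_GPX3 than in Vector without overlap, and AREG is highest in both groups.

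EREG, AREG and HBEGF were lower in every OE_GPX3 library than in any Vector library. EREG (ENSG00000124882, chromosome 4, 74365143 to 74388751, plus strand, hg38) had 25.5, 23.5 and 26.2 CPM in OE_GPX3, against 38.4, 49.7 and 34.4 CPM in Vector. The Vector libraries were the more scattered, with Vector replicate 2 the highest of the 6 libraries. The fitted log2 fold change of EREG was -0.70 with a standard error of 0.13 and a 95% confidence interval of -0.97 to -0.44, or 1.63-fold lower in OE_GPX3. Without Vector replicate 2 it was -0.54.

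AREG (ENSG00000109321, chromosome 4, 74445134 to 74455009, plus strand, hg38) had 57.5, 54.4 and 65.6 CPM in OE_GPX3, against 73.0, 89.2 and 78.1 CPM in Vector. Here too OE_GPX3 replicate 2 was the lowest library and Vector replicate 2 the highest. The log2 fold change of AREG was -0.44 with a standard error of 0.11 and a 95% confidence interval of -0.66 to -0.21, or 1.35-fold lower in OE_GPX3. HBEGF (ENSG00000113070, chromosome 5, 140332843 to 140346631, minus strand, hg38) had 3.42, 3.19 and 3.31 CPM in OE_GPX3, against 4.74, 5.09 and 5.99 CPM in Vector. These levels rest on few counts, namely 61, 54 and 51 counts in OE_GPX3 and 84, 99 and 98 counts in Vector. The log2 fold change of HBEGF was -0.67 with a standard error of 0.21, and its 95% confidence interval, -1.10 to -0.24, was the widest of the 3 genes.

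TGFA, which encodes transforming growth factor alpha, and BTC overlapped between the groups. TGFA (ENSG00000163235, chromosome 2, 70447280 to 70554193, minus strand) had 19.1, 15.99 and 21.0 CPM in OE_GPX3, against 19.8, 19.9 and 16.99 CPM in Vector. Both the lowest and the highest library belonged to OE_GPX3. Its log2 fold change was -0.02 with a 95% confidence interval of -0.30 to 0.26, and the sign turned in 5 of 17 other ways of processing or leaving out a library. BTC (ENSG00000174808, chromosome 4, 74744759 to 74794686, minus strand) had 3.20, 2.83 and 2.98 CPM in OE_GPX3, against 2.99, 3.03 and 2.63 CPM in Vector, from 43 to 59 counts per library. Its log2 fold change was 0.06 with a 95% confidence interval of -0.43 to 0.54 that is wide because of these low counts.

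The receptors overlapped between the groups as well. EGFR (ENSG00000146648, chromosome 7, 55019021 to 55211628, plus strand) had 116, 90.2 and 105 CPM in OE_GPX3, against 136, 120 and 93.0 CPM in Vector. Vector replicate 3 lay below 2 of the OE_GPX3 libraries, and the Vector libraries alone spanned most of the range. The log2 fold change was -0.17 with a 95% confidence interval of -0.41 to 0.08. It was -0.29 without Vector replicate 3 and -0.04 without Vector replicate 1.

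ERBB2 (ENSG00000141736, chromosome 17, 39687914 to 39730426, plus strand) had 208, 180 and 193 CPM in OE_GPX3, against 171, 155 and 189 CPM in Vector. OE_GPX3 replicate 1 was the highest and Vector replicate 2 the lowest, and the groups overlapped through Vector replicate 3. The log2 fold change was 0.18 with a 95% confidence interval of -0.04 to 0.39. ERBB2 shares 1931 bases with MIEN1 and 8884 bases with PGAP3 on the other strand. The sources used here do not say if reads were counted by strand, so the level of ERBB2 is uncertain to that extent. MIEN1 had a log2 fold change of -0.09 (edgeR adjusted p = 0.722) and PGAP3 of 0.17 (edgeR adjusted p = 0.517).

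ERBB3 (ENSG00000065361, chromosome 12, 56076799 to 56103505, plus strand) had 104, 75.3 and 74.0 CPM in OE_GPX3, against 75.7, 79.5 and 77.5 CPM in Vector. OE_GPX3 replicate 1 stood well above the other 5 libraries, and the other OE_GPX3 libraries were the lowest. The log2 fold change was 0.12 with a 95% confidence interval of -0.11 to 0.36, and it turned to -0.05 without OE_GPX3 replicate 1. The genes counted on EGFR, ERBB3 and TGFA, other than the members themselves, had at most 1 count in a library.

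**Figure D2:**
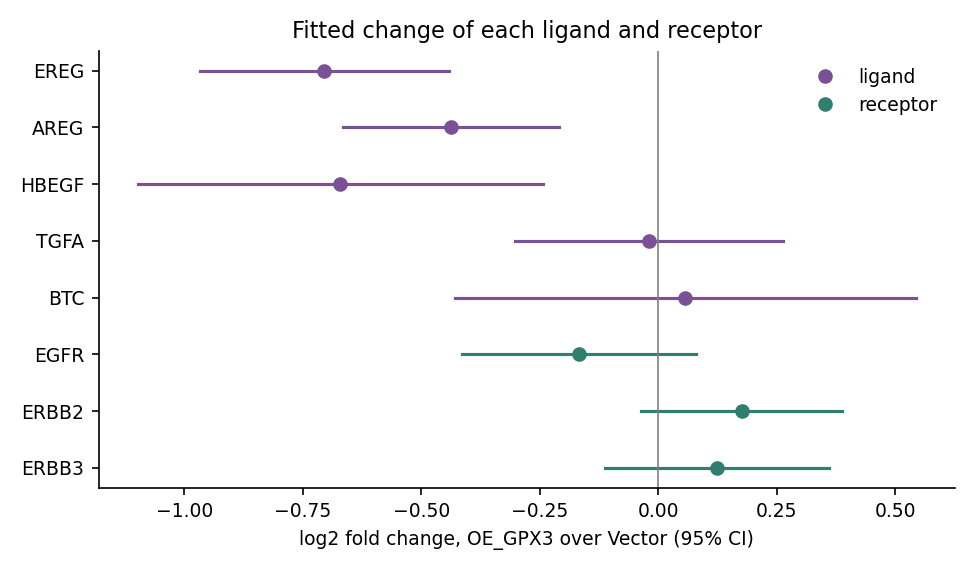
Fitted log2 fold change of OE_GPX3 over Vector for each ligand and receptor, with 95% confidence intervals as lines. EREG, AREG and HBEGF lie below 0 with their whole interval, while the intervals of the other 5 genes hold 0. The genes were chosen with this difference already seen, so the intervals describe it and are not a test.

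In all, 3 of the 8 genes were lower in OE_GPX3 without overlap of the libraries and 0 were higher without overlap, against 9.90% and 8.62% of all genes tested. Over all genes, edgeR's quasi-likelihood test called 38 at an adjusted p under 0.05, 0.263% of those tested (14 higher and 24 lower, or 13 higher and 55 lower with scaling by total counts alone). The direction that prevailed changed with the setting. DESeq2 called 74 higher and 41 lower. In edgeR it was 399 higher and 258 lower without OE_GPX3 replicate 1, and 28 higher and 88 lower without Vector replicate 1. Since the members were chosen on this contrast, nothing is read from these counts, and no call is given for a member. The median log2 fold change was -0.44 for the 5 ligands, -0.09 for all 8 members and -0.02 for all genes tested. EREG, AREG and HBEGF kept their sign in all 17 other settings, over ranges of -0.80 to -0.49, -0.51 to -0.35 and -0.74 to -0.38.

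The base composition of transcripts moved with the fold changes of all genes. The median log2 fold change was -0.18 in the lowest and 0.16 in the highest of 5 groups of 2890 genes ordered by GC content. EREG has 36.1% GC in its longest transcript and falls in the lowest group, AREG has 45.3%, HBEGF 50.9% and ERBB2 57.5%. With a correction for GC content the log2 fold changes were -0.50 for EREG, -0.35 for AREG, -0.68 for HBEGF and 0.08 for ERBB2. EREG and AREG were still lower in OE_GPX3, by less, and HBEGF by nearly the same amount, while ERBB2 came closer to 0.

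Seen library by library, the 3 lower ligands did not share 1 order. EREG and AREG were highest in Vector replicate 2, at 0.64 and 0.38 above their own mean on the log2 CPM scale, while HBEGF was highest in Vector replicate 3, at 0.52. All 3 were lowest in OE_GPX3 replicate 2, at -0.43, -0.34 and -0.39. Because AREG dominated, the summed ligand level followed it: the 5 ligands added up to 45.1, 42.5 and 51.0 FPKM in OE_GPX3, against 56.7, 68.8 and 59.4 FPKM in Vector. AREG made up 76.8% to 78.4% of that sum in OE_GPX3 and 76.9% to 79.3% in Vector, and these shares overlapped. EREG made up 9.02% to 9.81% in OE_GPX3 and 10.1% to 12.5% in Vector. The receptors added up to 40.6, 33.1 and 35.4 FPKM in OE_GPX3, against 35.2, 33.0 and 34.1 FPKM in Vector, which overlapped. The ratio of ERBB2 to EGFR in FPKM was 2.17, 2.42 and 2.24 in OE_GPX3, against 1.52, 1.57 and 2.46 in Vector, with Vector replicate 3 above all other libraries.

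**Figure D3:**
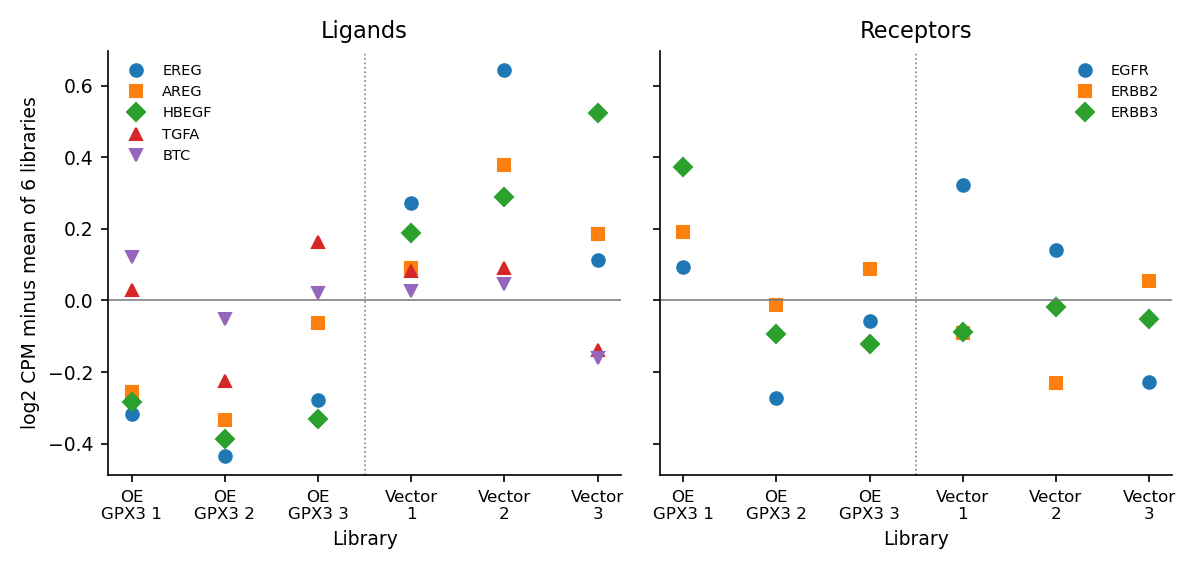
Level of each gene in each library as log2 CPM minus its mean over the 6 libraries, ligands on the left and receptors on the right, OE_GPX3 libraries left of the dotted line and Vector libraries right of it. EREG, AREG and HBEGF are below 0 in all OE_GPX3 libraries and above 0 in all Vector libraries, and ERBB3 stands out at 0.37 in OE_GPX3 replicate 1.

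The start regions of the lower ligands are shown because EREG, AREG and HBEGF were lower together, with BTC, the neighbour of EREG and AREG that overlapped between groups, for contrast. Each holds 250 bases before and 50 bases from the annotated start, from RefSeq on GRCh38.p14, where 7 of the 8 members have an entry, and is written on the gene's own strand. They are chr4:74364895-74365194 (plus strand) for EREG, chr4:74444886-74445185 (plus strand) for AREG, chr5:140346554-140346853 (minus strand) for HBEGF and chr4:74794474-74794773 (minus strand) for BTC. Capitals mark matches on either strand to motifs of known transcription factors. The cAMP response element was searched as TGACGTCA. The TATA box was searched as TATAAA, and the site of NF-Y as CCAAT. The GC box, bound by SP1, was searched as GGGCGG. The AP-1 site was searched as TGANTCA. The ETS site was searched as CCGGAAG, and 1 spelling of the CArG box of serum response factor was searched as well.
EREG: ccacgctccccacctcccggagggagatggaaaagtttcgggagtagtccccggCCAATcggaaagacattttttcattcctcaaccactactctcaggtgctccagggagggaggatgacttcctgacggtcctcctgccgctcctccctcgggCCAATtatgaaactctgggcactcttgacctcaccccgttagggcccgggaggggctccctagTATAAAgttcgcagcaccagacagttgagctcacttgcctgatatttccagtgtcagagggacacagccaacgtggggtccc
AREG: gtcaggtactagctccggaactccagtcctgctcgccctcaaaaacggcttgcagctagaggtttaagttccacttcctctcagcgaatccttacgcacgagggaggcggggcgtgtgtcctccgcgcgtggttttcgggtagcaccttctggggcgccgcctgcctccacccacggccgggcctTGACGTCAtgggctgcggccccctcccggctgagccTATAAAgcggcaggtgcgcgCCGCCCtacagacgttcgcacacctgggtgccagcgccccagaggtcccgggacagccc
HBEGF: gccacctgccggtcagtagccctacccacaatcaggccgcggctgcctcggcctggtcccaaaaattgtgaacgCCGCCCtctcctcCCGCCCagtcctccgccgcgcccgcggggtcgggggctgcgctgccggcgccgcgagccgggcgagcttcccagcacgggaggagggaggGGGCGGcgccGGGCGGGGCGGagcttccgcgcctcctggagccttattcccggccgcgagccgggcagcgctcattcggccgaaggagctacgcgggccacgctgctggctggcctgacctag
BTC: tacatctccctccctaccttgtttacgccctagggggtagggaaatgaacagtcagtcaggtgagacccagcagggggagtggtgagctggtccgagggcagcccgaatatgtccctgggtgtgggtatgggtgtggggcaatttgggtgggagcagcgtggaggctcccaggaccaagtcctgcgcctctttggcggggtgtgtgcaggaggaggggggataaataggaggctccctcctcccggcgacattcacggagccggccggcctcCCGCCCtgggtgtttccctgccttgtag
EREG and AREG have TATAAA beginning 32 and 29 bases before the start, and HBEGF and BTC have no exact match. BTC has gataaa, which differs in its first letter. Of 35116 such windows, 11.5% hold the exact motif at any position on either strand. A window of EGFR, which overlapped between groups, also holds it, 36 and 146 bases before the start (not shown). AREG has TGACGTCA beginning 65 bases before the start, which 1.85% of all windows hold. EREG has CCAAT at 196 and 95 bases before the start, against 34.6% of windows with at least 1. HBEGF has 5 matches to GGGCGG, of which 2 overlap by 1 base, and a window of 75.0% GC, and 45.0% of windows hold that motif. A window each of TGFA and EGFR, genes that overlapped between groups, also holds repeated matches at 75.3% GC (not shown). TGANTCA (7.71% of windows), CCGGAAG (10.3%) and that spelling of the CArG box (0.0342%) have no match in the windows of EREG, AREG, HBEGF or BTC. A match is a run of letters and not a shown binding site.

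EREG and AREG also lie side by side, in the ligand cluster of chromosome 4 that holds EPGN, EREG, AREG and BTC. AREG begins 56.4 kb after EREG ends, on the same strand, and BTC lies 356 kb from EREG on the other strand. EPGN, which encodes epigen and lies 49.8 kb before EREG, had 0 counts in all 6 libraries, and a count of 0 allows up to 3 counts in a library. Farther out, the chemokine genes CXCL3 and CXCL2 had log2 fold changes of -0.02 and -0.07 and MTHFD2L, a folate enzyme of mitochondria, had -0.22 (edgeR adjusted p = 0.963, 0.839 and 0.676). On the far side of BTC, PARM1 had 0.15 (edgeR adjusted p = 0.645), and RCHY1, a ubiquitin ligase gene, had -0.64 (95% confidence interval -1.08 to -0.20, edgeR adjusted p = 0.182). Of the neighbours tested other than AREG and BTC, 0 of 5 were called by edgeR, and 1, RCHY1, had an unadjusted p under 0.05. Of all 14458 genes tested, 0.263% were called and 2110 had such a p. RCHY1 alone of these neighbours was lower without overlap, beside 9.90% of all genes tested. It had 2.80, 3.72 and 3.05 CPM in OE_GPX3, against 4.63, 5.55 and 4.71 CPM in Vector.

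**Figure D4:**
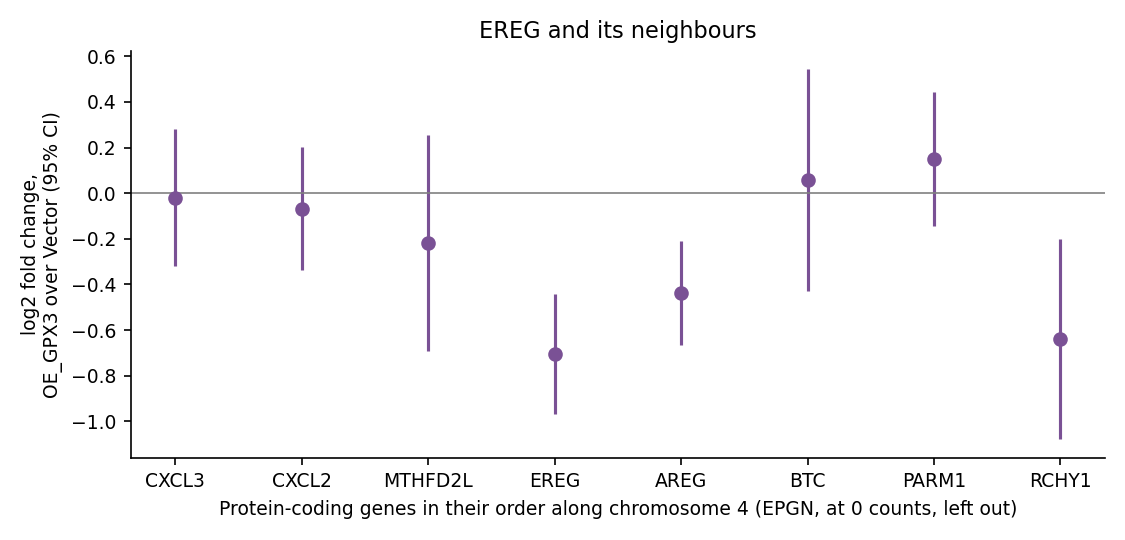
Fitted log2 fold change of OE_GPX3 over Vector for EREG and the protein-coding genes on either side, in chromosome order, with 95% confidence intervals. EREG and AREG lie side by side at -0.70 and -0.44, while the intervals of CXCL3, CXCL2, MTHFD2L, BTC and PARM1 hold 0 and that of RCHY1 does not.

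Of the other ligands and the fourth receptor, 4 of 7 genes had enough counts to be tested and 0 were called by edgeR, with 2 at an unadjusted p under 0.05. Of all 14458 genes tested, 0.263% were called and 2110 had such a p. DESeq2 and limma also called 0, but limma fitted only 3 of these genes. DESeq2 gave no adjusted p for NRG4, nor for LRIG3 of a list below, which had 112 to 242 counts per library. NRG2, ERBB4 and EGF had fewer counts than LRIG3 in every library, so the 0 of DESeq2 may rest on NRG1 alone. NRG1, which encodes neuregulin 1, a ligand of ERBB3 and ERBB4, was the most abundant at 48.1, 55.1 and 55.6 CPM in OE_GPX3, against 62.3, 66.9 and 60.2 CPM in Vector. The groups did not overlap, and 9.90% of all genes tested were lower without overlap. The log2 fold change of NRG1 was -0.25 (95% confidence interval -0.48 to -0.03, edgeR adjusted p = 0.291). NRG4, a ligand of ERBB4, had 5.16, 5.19 and 3.50 CPM in OE_GPX3, against 6.10, 7.35 and 5.44 CPM in Vector, a log2 fold change of -0.44 (edgeR adjusted p = 0.308). After the GC correction NRG1 was at -0.14 and NRG4 at -0.27, and NRG4 was at -0.28 without OE_GPX3 replicate 3. NRG2 had -0.23 and ERBB4 0.31 (edgeR adjusted p = 0.612 and 0.788), with 9 to 15 counts per library for ERBB4. EGF itself had 7, 6 and 2 counts in OE_GPX3 and 14, 8 and 5 counts in Vector, too few to be tested, and NRG3 had 0 in all libraries. A549 cells in both groups held RNA of EGFR, ERBB2 and ERBB3 and little of ERBB4.

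The genes around the receptors were taken from lists written from knowledge of the pathway, with earlier results of these data known. Their calls and counts are therefore a description and not an independent test. Across 5 lists, 101 of 108 genes were tested, and edgeR called 1, EGR1, which was lower. Of all genes tested, 0.263% were called. Unadjusted p-values under 0.05 were found for 22 of the 101 listed genes, 4 higher and 18 lower, beside 2110 of all 14458 genes, 988 higher and 1122 lower. The counts of single lists below are to be read against the same share. Without OE_GPX3 replicate 1, edgeR called 6 of 101 listed genes, beside 657 of all 14707 genes tested. The 6 were EGR1, ADAM17, ERRFI1, LRIG3, HRAS and PHLDA1. Passes without that library, given below, are to be read against this wider share. Without Vector replicate 2 edgeR called 1 listed gene, EGR1, and without OE_GPX3 replicate 2 it called 0.

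Ligand shedding had 12 tested genes, with 0 called by edgeR, 3 at an unadjusted p under 0.05, and a median log2 fold change of 0.13 that was -0.01 after the GC correction and 0.05 to 0.19 with 1 library left out, lowest without OE_GPX3 replicate 1. ADAM17, the main sheddase of AREG, EREG, HBEGF and TGFA, had 42.1, 36.4 and 33.3 CPM in OE_GPX3, against 46.8, 49.3 and 43.8 CPM in Vector. It was lower in OE_GPX3 without overlap, at a log2 fold change of -0.32 (SE 0.12, edgeR adjusted p = 0.208). After the GC correction it was -0.15, and without OE_GPX3 replicate 1 it was -0.42 (edgeR adjusted p = 0.0299). ADAM10, the main sheddase of BTC, had -0.27, and ADAM15 had 0.23 (edgeR adjusted p = 0.308 and 0.303).

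Receptor restraint and turnover had 21 tested genes, with 0 called by edgeR and 5 at an unadjusted p under 0.05. Of these 21 genes 18 were below 0, with a median of -0.19, beside 7601 of all 14458 genes below 0 and a median of -0.02, and after the GC correction the median was -0.05. LRIG3, a membrane protein related to the receptor inhibitor LRIG1, had 7.91, 6.85 and 7.27 CPM in OE_GPX3, against 11.3, 12.4 and 10.2 CPM in Vector, a log2 fold change of -0.63 (SE 0.16, edgeR adjusted p = 0.0754). ERRFI1, which encodes the EGFR kinase inhibitor MIG6, had 155, 130 and 146 CPM in OE_GPX3, against 182, 218 and 163 CPM in Vector, a log2 fold change of -0.39 (SE 0.11, edgeR adjusted p = 0.118). Both were lower in all OE_GPX3 libraries and missed the adjusted threshold with all libraries. Without OE_GPX3 replicate 1, where 657 of 14707 genes were called, both passed it, LRIG3 at -0.68 (edgeR adjusted p = 0.0188) and ERRFI1 at -0.44 (edgeR adjusted p = 0.00469). LRIG3 also passed it with the replicate block (edgeR adjusted p = 0.0470), where 231 of 14458 genes were called. Neither passed it without Vector replicate 2 (edgeR adjusted p = 0.641 for LRIG3 and 0.696 for ERRFI1) or without OE_GPX3 replicate 2 (edgeR adjusted p = 0.167 and 0.270). After the GC correction LRIG3 was at -0.56 and ERRFI1 at -0.27 (edgeR adjusted p = 0.210 and 0.378). PTPN2, a tyrosine phosphatase, had -0.34 (edgeR adjusted p = 0.287). In the signal relay list, which runs from adaptors through RAS and RAF to ERK and AKT, 37 genes were tested, with 0 called by edgeR and 5 at an unadjusted p under 0.05. Its median was -0.03, 0.01 after the GC correction and -0.09 to 0.02 with 1 library left out, and RASGRP1 and HRAS had log2 fold changes of -0.73 and 0.27 (edgeR adjusted p = 0.290 and 0.295). HRAS was at 0.08 after the GC correction and at 0.41 without OE_GPX3 replicate 1 (edgeR adjusted p = 0.0150).

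ERK output genes are transcribed or stabilised when ERK is active, and many feed back on the pathway. Of 27 tested, EGR1 fell and 26 were not called. EGR1, a zinc finger transcription factor induced within minutes of growth factor stimulation, had 48.0, 53.3 and 71.1 CPM in OE_GPX3, against 112, 152 and 103 CPM in Vector. The groups were far apart, with a log2 fold change of -1.09 (SE 0.16, edgeR adjusted p = 0.00654). The call was lost without OE_GPX3 replicate 2 (-1.03, edgeR adjusted p = 0.107), after the GC correction (-1.18, edgeR adjusted p = 0.119), with block and GC correction (-1.17, edgeR adjusted p = 0.0949) and in limma (-1.03 and -1.07, adjusted p = 0.120 and 0.126). The log2 fold change stayed between -1.26 and -0.90 over 17 alternatives, and its adjusted p over 17 alternatives ran from 9.78e-18 to 0.126.

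PHLDA1 had a log2 fold change of -0.56 and ETV5, an ETS factor, -0.37, both lower without overlap (edgeR adjusted p = 0.0604 and 0.167). PHLDA1 passed the threshold without OE_GPX3 replicate 1 (edgeR adjusted p = 0.00397) and without Vector replicate 1 (edgeR adjusted p = 0.00593). It did not without Vector replicate 2 (edgeR adjusted p = 0.641) or without OE_GPX3 replicate 2 (edgeR adjusted p = 0.200). After the GC correction PHLDA1 was at -0.46 (edgeR adjusted p = 0.272). Of the 27 genes 23 were below 0, beside 7601 of all 14458. Their median of -0.18 was -0.23 after the GC correction and -0.11 without Vector replicate 2. The feedback phosphatase genes DUSP4, DUSP5 and DUSP6, named after their values were seen, had -0.14, -0.18 and -0.29 (edgeR adjusted p = 0.523, 0.470 and 0.415).

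**Figure D5:**
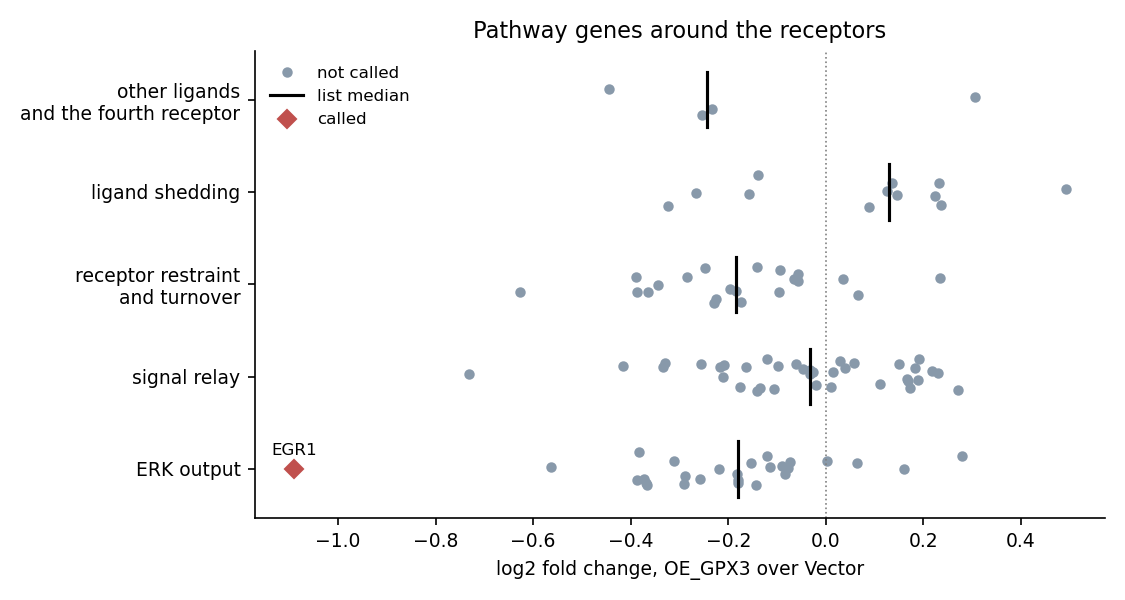
Log2 fold change of OE_GPX3 over Vector for the 101 tested genes of the 5 pathway lists, each point a gene, spread vertically only to separate points, with black bars for list medians. EGR1, at -1.09, is the only gene called by edgeR.

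The genes whose pattern over the 6 libraries lay closest to that of EREG were BCL10, CEBPG, TES and LRIG3, among 9980 protein-coding genes of at least 5 CPM. Their root mean square differences from EREG, after centring log2 CPM, were 0.09, 0.09, 0.09 and 0.10, against 0.17 for AREG and 0.23 for HBEGF. BCL10, a signalling adaptor, averaged 8.07 ± 0.317 CPM in OE_GPX3 and 12.1 ± 1.92 CPM in Vector (SD, n = 3 each). CEBPG, a bZIP transcription factor, averaged 44.3 ± 1.67 CPM in OE_GPX3 and 66.5 ± 14.4 CPM in Vector (SD, n = 3 each). For EGFR the closest were SESN1, SMG1, AAK1 and ASAP1, with differences of 0.03, 0.05, 0.05 and 0.05. In these, as in EGFR, replicates of a group differed by more than the group means: SESN1 averaged 7.20 ± 0.995 CPM in OE_GPX3 and 7.86 ± 1.51 CPM in Vector (SD, n = 3 each). No member was among the 4 closest to EREG or to EGFR. HBEGF and BTC averaged under 5 CPM and were outside the genes searched, so they could not have been.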

How the data were processed

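RNA of 6 A549 libraries was measured by sequencing. The authors deposited raw counts for each gene in each library. The submitters' processing notes name hg38 as the genome build. No source used here gives the aligner, the counter or whether strand was used. The labels' protocol describes a small RNA library, whereas the members are messenger RNAs. The authors also deposited FPKM, which equal count per gene length per 1 constant per library (largest relative deviation 5.11e-15), with constants -4.52% to 4.90% away from the total counts.

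From the counts, edgeR 4.0.16 (filterByExpr, minimum count 10 and minimum total count 15, TMM, robust quasi-likelihood test, two-sided, Benjamini-Hochberg adjustment over 14458 genes, threshold 0.05) compared OE_GPX3 with Vector. The biological coefficient of variation was 0.110. Fold changes and intervals of the members come from that fit. DESeq2 1.42.0 and limma 3.58.1, on log2(FPKM + 1) and log2(FPKM + 0.1) of genes with a mean of at least 1 FPKM, were alternatives, as were other scalings and filters, a replicate block, leaving out each library, and a GC correction by loess per library (span 0.5). Precision is limited by the count behind each value.

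Members and lists were chosen with earlier results of these data known. Genes named are the members, the other ligands and ERBB4, the called genes and the 3 smallest p-values of each list, 4 neighbours on either side of EREG, and the 4 genes closest in pattern to EREG and EGFR, except for an item that is not reported here. Motifs and 3' UTRs were chosen for description afterwards. Promoters are from RefSeq (GRCh38.p14) and transcripts from GENCODE release 29.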

Additional observations from a re-analysis of the deposited data

How the results depend on the processing

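EREG, AREG, HBEGF, EGFR and ERBB2 kept their sign in all 17 alternatives. BTC and ERBB3 turned in 1 each, BTC with scaling by total counts alone, and TGFA turned in 5. EREG moved by more than the spread between replicates with the GC correction (-0.50) and with the replicate block and GC correction together (-0.49), and BTC moved in the same alternatives (0.22 and 0.21). HBEGF moved to -0.38 on log2(FPKM + 1), a scale that understates low genes. Leaving out 1 library gave -0.80 to -0.54 for EREG, -0.51 to -0.35 for AREG, -0.74 to -0.56 for HBEGF, -0.29 to -0.04 for EGFR and 0.11 to 0.26 for ERBB2.

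Against 38 genes called, total counts alone gave 68, no filter on low counts 129, DESeq2 115, limma 10 with a pseudocount of 1 and 11 with 0.1, and the GC correction 4. Leaving out 1 library gave 1 (without OE_GPX3 replicate 2) to 657 (without OE_GPX3 replicate 1), with 4 without Vector replicate 2, 12 without OE_GPX3 replicate 3 and 116 without Vector replicate 1. The cause was not tested. For the pathway lists, against 1 gene called, total counts alone, upper-quartile scaling, no filter and DESeq2 gave 2, EGR1 and PHLDA1. Both limma fits gave 0, with 12 genes at an unadjusted p under 0.05, and in edgeR the GC correction gave 0, with 16, as did block and GC correction together, with 18. Leaving out 1 library gave 0 to 6, with 0 without OE_GPX3 replicate 2, 3 without Vector replicate 1 (EGR1, FOSL1 and PHLDA1) and 6 without OE_GPX3 replicate 1.

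Same-numbered libraries deviated together with correlations of 0.454, 0.045 and 0.313 for replicates 1, 2 and 3. Replicates 1 and 3 of opposite groups had -0.373 and -0.367, while OE_GPX3 replicate 2 correlated best with Vector replicate 3 (0.125). These values do not settle if the numbers pair the samples. The main fit did not pair them, and the replicate block is given as an alternative. The replicate block gave 231 genes called (141 higher and 90 lower) and 3 pathway genes called, EGR1, PHLDA1 and LRIG3. BTC and HBEGF rest on under 100 counts in every library.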

Other observations

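The 5 ligand genes have more of the pentamer ATTTA per kb of 3' UTR than the median gene. ATTTA is the core of AU-rich elements that mark short-lived messenger RNAs. In the longest coding transcript of GENCODE release 29, AREG has 4 in a 3' UTR of 269 bases, or 14.9 per kb, more per kb than 99.5% of 19145 genes with a 3' UTR. BTC has 12 in 1918 bases (6.26 per kb), EREG 20 in 3943 bases (5.07 per kb), TGFA 13 in 3579 bases (3.63 per kb) and HBEGF 5 in 1456 bases (3.43 per kb). The longer run TTATTTATT occurs once each in EREG and TGFA and not in AREG, HBEGF or BTC, beside 8.13% of genes with at least 1. The median over all genes was 1.47 per kb. The receptors lie close to it or below it, with 9 in the 6011 bases of EGFR, 2 in the 1450 bases of ERBB3 and 0 in the 317 bases of ERBB2. BTC and TGFA, which overlapped between OE_GPX3 and Vector, lie above EREG (BTC) and between EREG and HBEGF (TGFA), which did not overlap. This is a description of 8 genes, chosen after their values were seen, without a test.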
